A study of Homo sapiens with 8 samples.

Results

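Among the genes measured in lymphoma cells given an EZH2 degrader, 8 encode the B-cell antigen receptor or other molecules of the B-cell surface: the receptor chains CD79A, CD79B and IGHG1, the inhibitory receptors CD22 and CD72, the membrane proteins MS4A1 (CD20) and CD37, and the co-stimulatory receptor CD40. They were taken by gene symbol from the deposited tables of normalised expression. All 8 were present in each of the 3 tables, out of 18744 genes in the MS8815 table, 18320 in that of EPZ-6438, 18398 in that of MS8815N and 17467 common to all.

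The cells were SUDHL6, an established human line of diffuse large B-cell lymphoma of the germinal-centre type. They received 2.5 µM of MS8815, EPZ-6438 or MS8815N, or the vehicle DMSO, and RNA was collected at 18 h. MS8815 is a PROTAC against EZH2, that is, a molecule that joins its target to a ubiquitin ligase so that the target is degraded; EPZ-6438 (tazemetostat) blocks the enzymatic SET domain of EZH2; MS8815N is a non-PROTAC analog that serves as its control. There were 2 libraries in each of the 4 groups. The labels name no genetic change, and a single line at a single dose and time limits what the comparison can stand for. The labels call the libraries duplicates without naming separate cultures, so every p-value below reflects the spread among these libraries alone, and that spread can be technical. EZH2 is the H3K27 methyltransferase of polycomb repressive complex 2, and the design asks how degrading it compares with blocking its enzyme activity.

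The B-cell receptor consists of a membrane immunoglobulin, which binds antigen, and the CD79A-CD79B heterodimer, whose cytoplasmic tails carry the signal through ITAM motifs. CD22, a sialic acid-binding lectin, and CD72 carry ITIM motifs that recruit phosphatases and dampen that signal. CD40, a TNF receptor family member, takes the help of T cells, the tetraspanin CD37 organises membrane proteins, and CD20, CD22, CD37 and CD79B are all targets of approved or investigational antibodies against B-cell malignancies. Transcription of such genes in B cells depends on factors that include EBF1, PAX5, the octamer-binding proteins with POU2AF1, and ETS-family proteins such as SPI1, SPIB and ETS1.

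The RefSeq promoter table of the GRCh38.p14 build matched 3 of the 8 genes, CD22, CD72 and CD79A. For these 3 genes the 250 bases before the annotated start are shown, 5′ to 3′ on the gene's strand. Capitals mark AGGAAG, a core sequence of ETS-family sites, or CTTCCT where it lies on the other strand.
CD22 (chr19:35328937-35329186, plus strand): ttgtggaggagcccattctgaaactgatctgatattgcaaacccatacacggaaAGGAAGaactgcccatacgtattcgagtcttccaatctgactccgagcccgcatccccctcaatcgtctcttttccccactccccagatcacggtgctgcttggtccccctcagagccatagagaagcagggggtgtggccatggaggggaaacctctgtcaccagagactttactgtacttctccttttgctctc
CD72 (chr9:35618414-35618663, minus strand): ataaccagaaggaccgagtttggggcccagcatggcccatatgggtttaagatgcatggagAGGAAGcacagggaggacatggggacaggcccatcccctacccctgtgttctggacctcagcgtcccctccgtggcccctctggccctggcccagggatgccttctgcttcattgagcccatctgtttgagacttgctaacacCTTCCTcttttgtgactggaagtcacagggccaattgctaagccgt
CD79A (chr19:41877029-41877278, plus strand): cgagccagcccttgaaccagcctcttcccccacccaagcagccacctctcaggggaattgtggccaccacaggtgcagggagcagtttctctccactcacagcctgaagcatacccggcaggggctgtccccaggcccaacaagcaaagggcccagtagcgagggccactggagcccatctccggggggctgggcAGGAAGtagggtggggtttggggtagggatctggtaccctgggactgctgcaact
Searched on both strands, AGGAAG was found in 3 of 3 windows, against 28.7% of the 34943 promoters of that length in the table. The E-box CAGGTG was found in 1 of 3, the CD79A window, against 17.5% of all promoters. The octamer-type TGCAAAT was in 0 of 3 windows (3.68% of all promoters), and CCCNNGGG, a core of EBF1-type sites, was in 0 of 3 (17% of all promoters). None of these matches is a measured binding site. As all 3 windows held AGGAAG, its presence could not be set against the size of the MS8815 changes, and a link was not tested. For all 3 genes GENCODE 29 has the outermost transcribed base elsewhere than at the end of the window shown. It is 35319261 for CD22 and 35646810 for CD72, both upstream of the whole window, and 41877120 for CD79A, inside it. The windows are therefore those of 1 annotated start per gene, and which start these cells used was not analysed here.

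In DMSO all 8 genes were expressed. Normalised count per kilobase of exon, the scale used here to compare genes, was highest for IGHG1 at 37749 ± 104 (SD, n = 2 libraries, as for all means below). CD79B followed at 24870 ± 238 and CD79A at 24856 ± 682, and these neighbours did not differ beyond their spread. CD37 had 6349 ± 191, MS4A1 4826 ± 51.1, CD22 3778 ± 111, CD40 1639 ± 17.3 and CD72 147.3 ± 14.2 normalised counts per kilobase. Each step was larger than the spread between libraries, which does not cover the choice of exon length (merged over annotated transcripts). Without division by length, MS4A1 (16972.5 normalised counts) stood above CD37 (13085.4). By normalised count, IGHG1 stood above 99.9% of the shared genes in DMSO and CD72 above 52.3%. The line's identity was visible beside them, since all 11 B-cell identity markers examined (among them PAX5, EBF1, BCL6 and MME) were detected in every table.

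The libraries of MS8815 stood apart before any of these genes was considered. Their estimated depth was 12.94 and 14.65 M reads (M for 1000000), against 26.03 to 34.05 M reads in the other libraries. In them 17 of the 19 measured adherent-cell genes (keratins, collagens and related genes) rose and 0 fell; their median log2 fold change was 4.0. The adherent genes summed to 0.151 to 0.162% of counts in MS8815 libraries, against 0.00897 to 0.0104% in DMSO libraries. The 13 mitochondrially encoded genes, all of which rose, took 3.99 to 4.21% with MS8815 and 1.53 to 1.58% with DMSO, and genes of RNA without poly(A) tails, 7 of 8 of which rose, took 1.62 to 1.64% and 0.0937 to 0.0978%; of these RNU1-1 was at 0 in DMSO. The 11 B-cell identity markers took 0.117 to 0.127% with MS8815 and 0.245 to 0.253% with DMSO; 10 of the 11 fell and 0 rose, and the median log2 fold change was -1.0. T and NK cell markers summed to 0.00204 to 0.00248% in MS8815 libraries and 0.00292 to 0.003% in DMSO libraries. Of these 6 measured markers 1 rose and 1 fell. Myeloid markers summed to 0.000913 to 0.00104% and 0.000649 to 0.000843%, with 2 of 4 higher and 0 lower, and plasma cell markers to 0.0283 to 0.0286% and 0.063 to 0.0638%, with 3 of 7 higher and 2 lower. No measured marker of these cell types was at 0 in both libraries of a group. In such bulk RNA, fewer cells of a type and less RNA per cell cannot be told apart. What part these features of the MS8815 libraries have in the results below was not tested, nor was that of the 2 library kits that the labels name without assigning them.

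With MS8815, 7 of the 8 genes fell relative to DMSO and 0 of 8 rose (limma, Benjamini-Hochberg adjusted p under 0.05). In the same comparison 22.4% of all genes were called lower and 46.9% were called in either direction. That background takes in many genes of lower level, as the 8 stood above 52.3% (CD72) to 99.9% (IGHG1) of shared genes in DMSO. With the less abundant genes left out, 4041 of the 9372 genes kept were called lower, and 7 of the 8. The share of all genes called lower therefore understates the background at the level of these genes. The median log2 fold change of the 8 was -0.95, with a median of -0.00 over all genes. In all 8 genes both MS8815 libraries lay below both DMSO libraries, which was so for 35.9% of all genes. The 8 genes together made up 0.314 and 0.319% of all normalised counts in the MS8815 libraries, against 0.646 and 0.654% in the DMSO libraries. The levels below are normalised read counts on one scale for all 8 libraries, and all members are in the plot of levels by library.

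**Figure D1:**
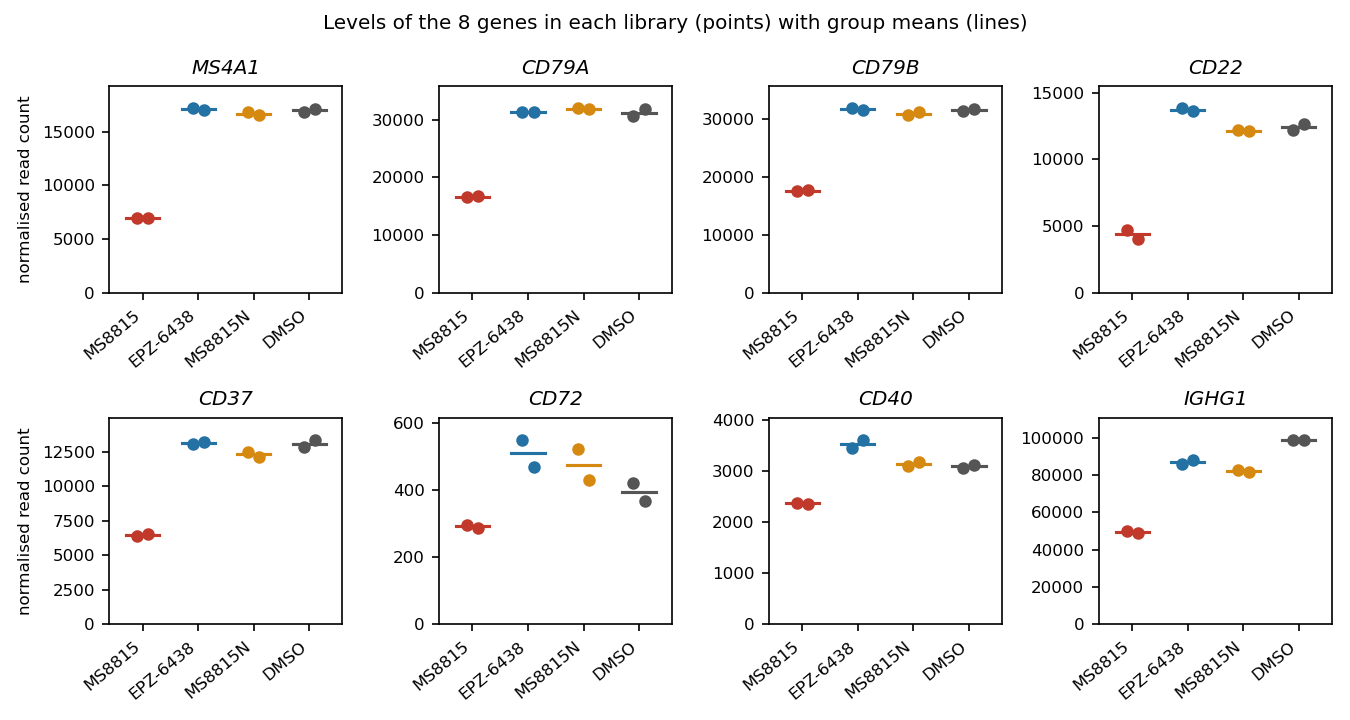
Normalised read count of each of the 8 genes (vertical axes, from 0) in the 2 libraries each of MS8815, EPZ-6438, MS8815N and DMSO; points are libraries and lines are group means. In every panel both MS8815 libraries lie below all other libraries, and in the IGHG1 panel the EPZ-6438 and MS8815N libraries also lie below DMSO. Both MS8815 libraries were below both DMSO libraries in 35.9% of all genes, and such shares for the other groups are not given here.

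CD79A, the alpha signalling chain of the receptor (chromosome 19, 41877120 to 41881372, GRCh38, GENCODE 29), had normalised counts of 16539.1 and 16775.6 with MS8815, against 30662.3 and 31876.2 with DMSO. EPZ-6438 gave 31380.4 and 31373.0, and MS8815N gave 32031.7 and 31850.3. The MS8815 libraries alone were low; the EPZ-6438 values fell inside the DMSO range. The log2 fold change for MS8815 was -0.91 (SE 0.03, adjusted p = 2.91e-05), which is 53.3% of DMSO.

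CD79B, the beta chain (chromosome 17, 63928740 to 63932354), had 17598.6 and 17754.7 normalised counts with MS8815, against 31420.3 and 31847.9 with DMSO. The values were 31929.5 and 31616.8 with EPZ-6438 and 30735.8 and 31200.7 with MS8815N. Again only the MS8815 libraries were far from the rest, and CD79B fell to 55.9% of DMSO (log2 fold change -0.84, SE 0.03, adjusted p = 1.98e-05). The partners of the heterodimer kept close to one ratio. Relative to the DMSO mean, the log2 ratio of CD79A to CD79B was -0.07 and -0.06 in the MS8815 libraries and between -0.01 and 0.08 in those of the other compounds. Their profiles over the 8 libraries were also the closest pair among the members, with a root mean square difference of 0.048 on the log2 scale. The closeness was not particular to the partners. CD79A and CD37 differed by 0.058, and genes outside the 8 were nearer to each chain, HNRNPDL to CD79B (0.016) and RRS1 to CD79A (0.026).

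IGHG1, the constant region of the IgG1 heavy chain (chromosome 14, 105736343 to 105743071), had 50063.8 and 49001.5 normalised counts with MS8815, against 99055.8 and 98671.0 with DMSO. It had 86240.6 and 88036.3 with EPZ-6438, and 82590.8 and 81461.0 with MS8815N. The DMSO mean was the highest and the MS8815 mean the lowest. IGHG1 fell to 50.1% of DMSO with MS8815 (log2 fold change -1.0, SE 0.02, adjusted p = 9.62e-06). Reads of the near-identical IgG constant genes can be shared, so the assignment to IGHG1 is uncertain. IGHG1 and IGKC, the kappa constant region, were the heavy and light chain genes with the highest counts of those listed. Which chains pair was not measured. IGKC was at 14461 ± 252 normalised counts with MS8815 and 31775 ± 1160 with DMSO in the MS8815 table. IGHM, the IgM heavy chain, had 8.207 ± 0.645 with MS8815 and 0.3453 ± 0.488 with DMSO.

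Of the inhibitory receptors, CD22 (chromosome 19, 35319261 to 35347355) had 4726.1 and 4025.6 normalised counts with MS8815, against 12167.8 and 12685.8 with DMSO. The counts were 13842.9 and 13614.7 with EPZ-6438 and 12205.8 and 12121.6 with MS8815N. CD22 had the largest fall of the 8 genes with MS8815, to 35.1% of DMSO (log2 fold change -1.51, SE 0.08, adjusted p = 4.81e-05). On a log scale its 2 MS8815 libraries were also farther apart than those of the other members, and both lay far below every other library.

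CD72, the other inhibitory receptor and a ligand-binding lectin (chromosome 9, 35609533 to 35646810), was the least abundant of the 8. It had 296.2 and 287.1 normalised counts with MS8815, 550.0 and 468.0 with EPZ-6438, 522.3 and 428.3 with MS8815N, and 420.9 and 367.3 with DMSO. The MS8815 values were the lowest and close together, and the means of both other compounds were above that of DMSO. Libraries within the EPZ-6438, MS8815N and DMSO groups lay far apart for this gene. The log2 fold change of -0.43 for MS8815 (SE 0.15, 95% interval -0.80 to -0.06) had an adjusted p of 0.0655 and was not called. With the spread estimated over all 8 libraries the adjusted p was 0.0342, and after quantile normalisation the log2 fold change was -1.09 (adjusted p = 0.00416). Over its 12 alternatives the adjusted p of CD72 ran from 0.00416 to 0.379. CD72 overlaps TESK1 on the opposite strand, which had 1408 normalised counts in DMSO and a log2 fold change of 0.05 (SE 0.07) with MS8815; whether reads were counted by strand is not given in the sources used here, so part of the CD72 count may belong to TESK1.

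MS4A1, which encodes CD20, the target of rituximab (chromosome 11, 60455752 to 60470760), had 6932.9 and 6917.5 normalised counts with MS8815, against 16845.4 and 17099.5 with DMSO. Counts were 17185.5 and 17038.9 with EPZ-6438 and 16798.7 and 16547.8 with MS8815N. The MS8815 libraries were nearly equal and far below the other 6, and MS4A1 fell to 40.8% of DMSO (log2 fold change -1.29, SE 0.04, adjusted p = 1.05e-05). CD37 (chromosome 19, 49335171 to 49343335) had 6368.6 and 6556.1 normalised counts with MS8815, against 12806.3 and 13364.4 with DMSO. The EPZ-6438 libraries had 13050.6 and 13207.1, inside the DMSO range, and the MS8815N libraries 12500.9 and 12130.3. CD37 fell to 49.4% of DMSO with MS8815 (log2 fold change -1.02, SE 0.04, adjusted p = 3.83e-05). TEAD2, which overlaps CD37 on the opposite strand, had 26.6 normalised counts in DMSO and a log2 fold change of 3.25 with MS8815 (SE 0.28, adjusted p = 0.000321).

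CD40 (chromosome 20, 46118272 to 46129863) had 2384.2 and 2362.4 normalised counts with MS8815, against 3070.9 and 3117.1 with DMSO. It had 3464.2 and 3619.9 with EPZ-6438 and 3109.0 and 3184.9 with MS8815N. Its fall with MS8815, to 76.7% of DMSO, was the smallest of the 7 that were called (log2 fold change -0.38, SE 0.06, adjusted p = 0.00285). The call was lost without DMSO replicate 1 (-0.40, adjusted p = 0.0549) or without DMSO replicate 2 (-0.37, adjusted p = 0.064). Over its 12 alternatives the adjusted p of CD40 ran from 0.000162 to 0.064.

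**Figure D2:**
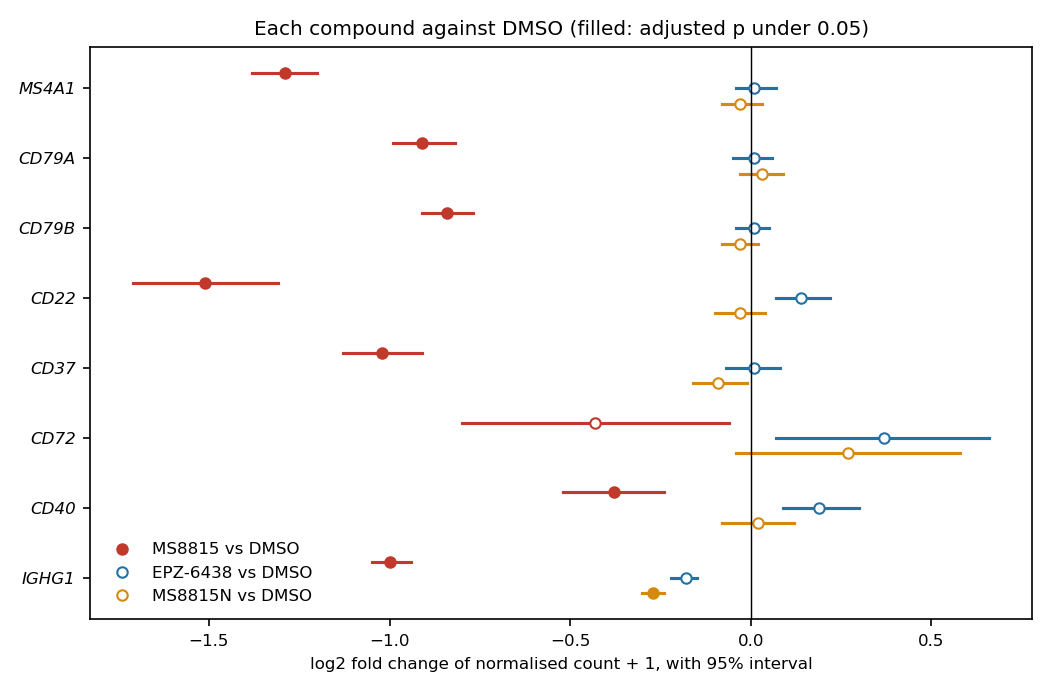
Log2 fold change of normalised count + 1 against DMSO (horizontal axis) for the 8 genes, with the limma estimate as a point and its 95% interval as a line, for MS8815, EPZ-6438 and MS8815N in this order from top to bottom within each gene; filled points have an adjusted p under 0.05. The MS8815 points run from -1.51 for CD22 to -0.38 for CD40, and among the other points only IGHG1 with MS8815N is filled.

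The direction of the MS8815 changes depended on the scale. As deposited, each value is relative to the bulk of all genes. A set of 22 other B-cell genes, holding none of the 8, had a median log2 fold change of -1.03 with MS8815, with an SD of 0.84 and a range from -2.22 for VPREB3 to 2.27 for CIITA. Scaled to that set, MS4A1 (-0.23, adjusted p = 0.0019) and CD22 (-0.45, adjusted p = 0.0047) were still lower. The log2 fold change was then 0.16 for CD79A, 0.22 for CD79B, 0.05 for CD37, 0.63 for CD72, 0.68 for CD40 and 0.07 for IGHG1. Of these 6, CD37 did not pass (adjusted p = 0.346) and the other 5 were called higher, where 72.4% of all genes were called higher. The median of all genes was 1.04 on that scale. All 8 genes lay below it, as before scaling, because a single factor for each library moves all genes nearly alike. These p-values take the scaling factor as exact.

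**Figure D3:**
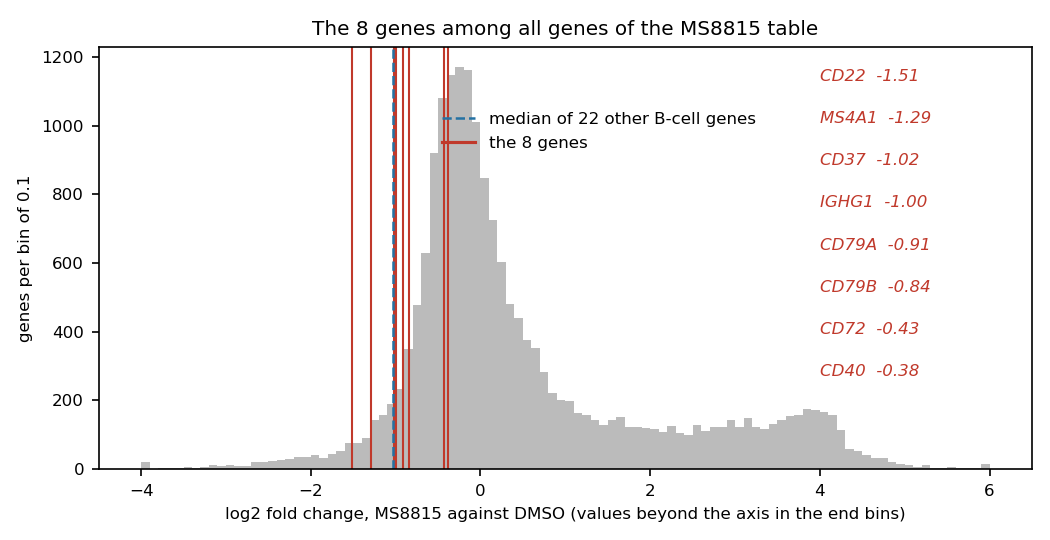
Number of genes per bin of 0.1 (vertical axis) by log2 fold change of MS8815 against DMSO (horizontal axis) for all 18744 genes of that table, with the 8 genes as solid lines and the median of 22 other B-cell genes, -1.03, as a dashed line. CD22 and MS4A1 lie left of the dashed line, IGHG1, CD37, CD79A and CD79B lie near it, and CD72 and CD40 lie to its right.

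Ratios of genes inside a library are not affected by a scaling factor for that library. Relative to the DMSO mean, the log2 ratio of CD22 to CD79A was -0.48 and -0.73 in the MS8815 libraries, and that of MS4A1 to CD79A was -0.37 and -0.40. The CD40 to CD79A ratio went the other way, at 0.54 and 0.51 with MS8815. For the CD22 to CD40 ratio the MS8815 libraries were at -1.02 and -1.24, against -0.01 and -0.09 with EPZ-6438 and -0.03 and -0.08 with MS8815N. These are the members with the largest and the smallest fall with MS8815, so a large ratio there follows from those falls. CD37 and IGHG1 moved nearly as CD79A did with MS8815, their ratios to it being -0.12 and -0.10 for CD37 and -0.06 and -0.11 for IGHG1.

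**Figure D4:**
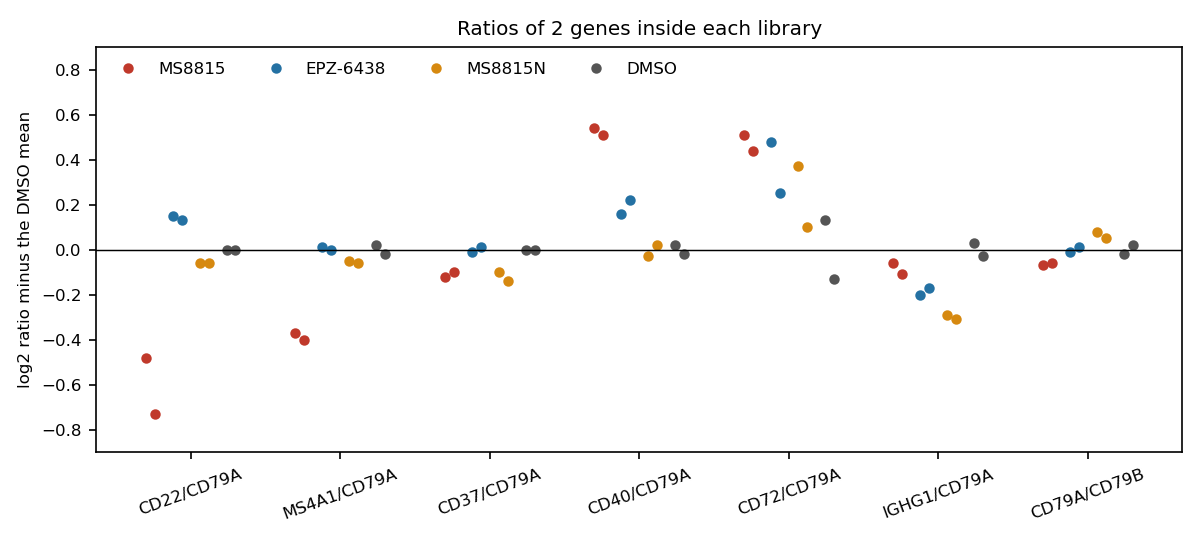
Log2 ratio of pairs of genes inside each library minus the mean of the DMSO libraries (vertical axis), with 1 point per library, for MS8815, EPZ-6438, MS8815N and DMSO from left to right within each pair. MS8815 points lie at -0.48 and -0.73 for CD22 to CD79A and at 0.54 and 0.51 for CD40 to CD79A, while EPZ-6438 and MS8815N points are the lowest for IGHG1 to CD79A.

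With EPZ-6438, 0 of the 8 genes passed the test against DMSO, where limma called 0.0328% of all genes (6 of 18320). At an unadjusted p under 0.05 there were 4, CD22, CD72, CD40 and IGHG1, and that threshold took in 16.8% of all genes. The log2 fold changes of CD79A, CD79B, MS4A1 and CD37 were 0.01 each, with 95% intervals that reached no further than -0.07 and 0.08. CD22 was at 0.14 (95% interval 0.07 to 0.22, adjusted p = 0.107), CD40 at 0.19 (0.09 to 0.30, adjusted p = 0.12) and CD72 at 0.37 (0.07 to 0.66, adjusted p = 0.227). IGHG1 was the one gene of the 8 with a negative log2 fold change, -0.18 (SE 0.01, 95% interval -0.22 to -0.15, adjusted p = 0.0558). Its adjusted p passed the threshold under other settings, being 0.0266 with the lower 50% of genes by level left out, 0.0178 without the variance trend, 0.0307 with a pseudocount of 0.1 and 0.0242 on log2 counts; over all 12 alternatives it ran from 0.0178 to 0.4.

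With MS8815N, 1 of the 8 genes, IGHG1, was called lower; the background in that comparison was 0.245% of genes called lower and 0.533% in either direction. IGHG1 had 82590.8 and 81461.0 normalised counts with MS8815N, 83% of DMSO (log2 fold change -0.27, SE 0.01, 95% interval -0.30 to -0.24, adjusted p = 0.00443). The size stayed between -0.28 and -0.26 when any of the 4 libraries was left out, but the call was lost each time. Its adjusted p was 0.381 without MS8815N replicate 1, 0.448 without MS8815N replicate 2, 0.055 without DMSO replicate 1 and 0.0509 without DMSO replicate 2. Scaled to the other B-cell genes it was -0.19 (adjusted p = 0.032), and over its 12 alternatives the adjusted p ran from 0.000321 to 0.448. Of the other 7 genes, CD37 was at -0.09 (95% interval -0.16 to -0.01, adjusted p = 0.261) and CD72 at 0.27 (-0.04 to 0.58, adjusted p = 0.403). CD79A was at 0.03, CD79B, CD22 and MS4A1 at -0.03 each, and CD40 at 0.02. IGKC, the light chain gene with the highest counts of those listed, had a log2 fold change of -0.03 with MS8815N (adjusted p = 0.724) and -0.08 with EPZ-6438 (adjusted p = 0.286). The IGHG1 to CD79A ratio was -0.29 and -0.31 in the MS8815N libraries and -0.20 and -0.17 in the EPZ-6438 libraries, against 0.03 and -0.03 in the DMSO libraries. These comparisons share their DMSO libraries, so the values of the compounds are not independent of each other.

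The compounds were given at one dose and time, and all 3 pairs were compared on the joined scale. MS8815 against MS8815N, the PROTAC against its non-PROTAC analog, had all 8 genes lower, where 26.3% of all genes were called lower and 50.6% in either direction. The differences ran from -1.48 for CD22 (95% interval -1.63 to -1.33, adjusted p = 8.72e-07) to -0.41 for CD40 (-0.51 to -0.30, adjusted p = 0.000131). MS4A1 differed by -1.27, CD79A by -0.94, CD79B by -0.81, CD37 by -0.93 and IGHG1 by -0.73. CD72, not called against DMSO, was lower with MS8815 than with MS8815N by -0.70 on the log2 scale (-1.03 to -0.36, adjusted p = 0.00395).

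MS8815 against EPZ-6438 also had all 8 genes lower, again with 26.3% of all genes called lower and 50.6% in either direction. CD22 differed by -1.65 (95% interval -1.80 to -1.50), MS4A1 by -1.30, CD37 by -1.02, CD79A by -0.91, CD79B by -0.85, IGHG1 by -0.81, CD72 by -0.80 and CD40 by -0.58. Adjusted over the 3 pairs together, the largest p among these and the MS8815 to MS8815N differences was 0.00587, for CD72. As against DMSO, scaling to the other B-cell genes turned 6 of the 8 differences positive in both of these pairs, all but MS4A1 and CD22.

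MS8815N and EPZ-6438, neither of them a PROTAC, differed in 0 of the 8 genes at an adjusted p under 0.05. There limma called 0.172% of all genes (30 of 17467). An unadjusted p under 0.05 was found for 4 of the 8, CD22, CD37, CD40 and IGHG1, and for 6.13% of all genes. The intervals were narrow for most genes. They ran from -0.09 to 0.02 for MS4A1, from -0.03 to 0.08 for CD79A, from -0.08 to 0.01 for CD79B and from -0.17 to -0.02 for CD37. The difference was -0.17 for CD22 (-0.33 to -0.02, adjusted p = 0.73) and -0.10 for CD72 (-0.43 to 0.23, adjusted p = 0.982), the least precise of the 8. IGHG1, lower with MS8815N by -0.09 (-0.13 to -0.05), had an unadjusted p of 0.00091 and an adjusted p of 0.196; CD40, at -0.17 (-0.27 to -0.07), had 0.0055 and 0.459. Adjusted over all genes of the 3 pairs together, these values were 0.00442 for IGHG1 and 0.0201 for CD40, a family in which the pairs with MS8815 hold most of the small p-values.

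**Figure D5:**
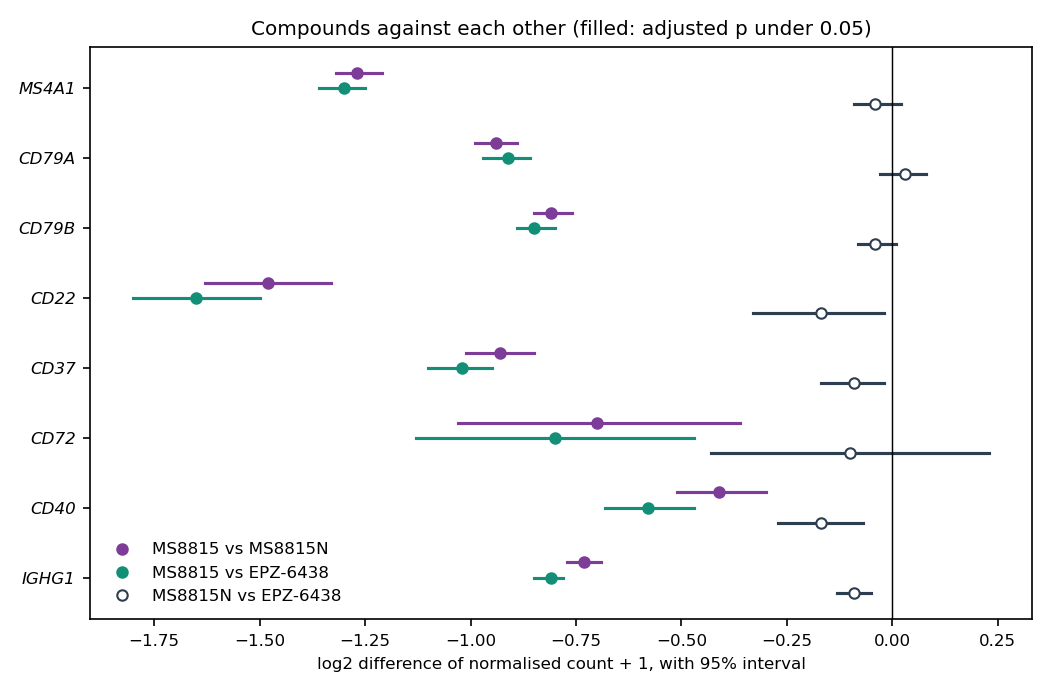
Log2 difference of normalised count + 1 between compounds (horizontal axis) for the 8 genes, with the limma estimate as a point and its 95% interval as a line, for MS8815 vs MS8815N, MS8815 vs EPZ-6438 and MS8815N vs EPZ-6438 in this order from top to bottom within each gene; filled points have an adjusted p under 0.05. All 8 points of both pairs with MS8815 are filled and negative, and no point of MS8815N vs EPZ-6438 is filled.

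Further genes of these pathways were taken from lists and read in the comparison of MS8815 with DMSO, where 46.9% of all genes were called. Of 10 further immunoglobulin-related genes measured, 6 fell and 2 rose, and the median log2 fold change was -1.12. VPREB3, a relative of the surrogate light chain gene VPREB1, fell by 2.22 on the log2 scale (SE 0.08), JCHAIN, which joins polymeric immunoglobulin, by 1.39 (SE 0.05), IGKC by 1.14 (SE 0.03) and IGLL5 by 0.76 (SE 0.08). Among 40 other B-cell surface genes 16 fell and 9 rose, with a median of -0.36. Those that fell included CD24 (-1.40), CD27 (-1.46), FCRLA (-1.10) and SLAMF6 (-1.63). The 9 that rose were low in DMSO beside these 4. The chemokine receptor CXCR5 had 183.5 ± 2.41 normalised counts with MS8815 and 49.52 ± 13.3 with DMSO in that table (1.89), SEMA4D was at 1.80, the cytokine receptor IL4R at 1.57 and the co-stimulatory ligand CD80 at 0.45. The other 5 had under 5 normalised counts in DMSO. SLAMF7 had 101.9 ± 2.19 with MS8815 and 1.333 ± 0.0418 with DMSO, CXCR4 62.87 ± 9.46 and 3.918 ± 0.0455, and CCR7 56.46 ± 2.68 and 0.7005 ± 0.991. FCMR had 35.69 ± 15.4 with MS8815 and 4.696 ± 4.31 with DMSO, and CD200 12.04 ± 2.23 and 0.2604 ± 0.368.

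A list of 8 other tetraspanins was split, with 4 higher and 2 lower and a median of 0.17. CD9 had a log2 fold change of 4.04 (SE 0.14), CD151 of 3.83 (SE 0.11) and CD63 of 1.04 (SE 0.05), all of them expressed in adherent cells also, while TSPAN33 was at -0.85 (SE 0.09). The tetraspanins CD81 and CD53 were counted among the surface genes above; CD81 fell (-0.51, SE 0.04) and CD53 was at -0.17 (SE 0.11, not called). The rise of the adherent-cell genes given above lies in the same libraries, and its part in this was not tested.

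In a list of 9 genes of inhibitory signalling, which holds other ITIM receptors (SIGLEC10, PECAM1 and CEACAM1) beside kinases, phosphatases and an adaptor, 5 fell and 0 rose, with a median of -0.25. The phosphatase INPP5D (SHIP1) was at -1.29 (SE 0.06), the lectin SIGLEC10 at -1.02, the kinase CSK at -0.85 and the adaptor DOK3 at -0.82. The phosphatase PTPN6 (SHP1), recruited by CD22 and CD72, had a log2 fold change of 0.19 (SE 0.16) and the kinase LYN of 0.01 (SE 0.12), and neither was called. The CD40 pathway list was split, with 4 of 13 higher, 4 lower and a median of 0.09. Its adaptors TRAF1 (2.87, SE 0.22) and TRAF5 (4.01, SE 0.47) rose, as did BIRC2 (0.39, SE 0.07), while BIRC3 (-0.45, SE 0.04) fell.

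Of 19 transcription factors of the B lineage, 14 fell and 3 rose, with a median of -0.77. IRF8 was at -1.43, IKZF1 at -1.22, EBF1 at -1.13, POU2AF1 at -0.86, SPIB at -0.85, ETS1 at -0.78, PAX5 at -0.77 and SPI1 at -0.50. The 3 that rose were PRDM1, the repressor that drives plasma cell differentiation (2.16, SE 0.34), TCF3, which encodes the E2A proteins (0.72, SE 0.04), and XBP1 (0.45, SE 0.10). In the lists of pathway genes given here, EPZ-6438 called 0 genes and MS8815N called 2. These were CD24, which was lower with MS8815N (14847 ± 274 normalised counts, against 17114 ± 177 with DMSO, log2 fold change -0.21, adjusted p = 0.0342), and XBP1, a plasma cell factor, which was higher (1642 ± 53.7, against 1196 ± 31.5, log2 fold change 0.46, adjusted p = 0.0407).

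The genes most like the mean profile of the 8 over the 8 libraries were sought among 8726 genes in the upper 50% by level, by the root mean square difference of centred log2 values. GFOD1 was nearest at 0.031, followed by CENPM (0.038), SNX22 (0.040), MAT2A (0.041) and ATP5G3 (0.042). For single members the nearest gene was HNRNPDL for CD79B (0.016), INTS9 for IGHG1 (0.024), RRS1 for CD79A (0.026), CCDC88B for CD40 (0.026), MYBL2 for CD37 (0.035), MARCKSL1 for MS4A1 (0.044), LRMP for CD22 (0.071) and ZNF202 for CD72 (0.105). INTS9 shared with IGHG1 log2 fold changes of -0.97 with MS8815, -0.18 with EPZ-6438 and -0.28 with MS8815N, of which only the first was called (adjusted p = 0.000335). Among the members themselves CD22 and CD40 were the least alike, at 0.477.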

How the data were processed

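Per the labels, total RNA of SUDHL6 cells was sequenced after library preparation with 1 of 2 commercial kits. STAR 2.4.2, Salmon and GRCh38 are named in the submitters' processing notes; the gene model and the use of strand are not given in the sources used here. The deposited values are on a log2-type scale. By the names of the tables, the authors applied DESeq2's variance-stabilising transform, in 3 separate tables that share the 2 DMSO libraries. No further filter on low values was applied.

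The transform was inverted to normalised read counts. Between tables, the DMSO counts of 17219 genes then differed only by constants for the gene and for the library (to within 7e-11 in log2), through which all tables were joined to the MS8815N table. For 10 genes the median constant was used. Depth was estimated from the spacing of low counts, of which 38.07 to 65.41% were whole within 0.02 of a multiple.

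Each compound was compared with DMSO in its own table by limma 3.58.1 (R 4.3.3) with a variance trend on the deposited values, two-sided, with 2 residual degrees of freedom, Benjamini-Hochberg adjustment over all genes and a threshold of 0.05. Log2 fold changes, SEs and 95% intervals came from limma on log2(normalised count + 1), as did the comparisons of compounds (8 libraries, 4 residual degrees of freedom, adjustment over the 17467 shared genes). These procedures were run on simulated counts with the same spread setting and depth in every library and few genes changed. The MS8815 libraries differed in depth and replicate spread, and many genes changed, so that run cannot show how the procedures behave there. The members and lists were chosen with earlier results of these data known; from each list up to 4 genes with the smallest p and genes called with EPZ-6438 or MS8815N were named, and IGHM, PTPN6, LYN, EBF1, PAX5, SPIB, SPI1, CIITA, RNU1-1, CD81, CD53, the genes of the surface and factor lists that rose, and the overlapping genes TESK1 and TEAD2 were added after their values were seen. Lists were given no test of their own. Exon lengths and coordinates are of GENCODE 29. Alternatives were other normalisations, filters, pseudocounts and variance models, a replicate block, and leaving out each library.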

Additional observations from a re-analysis of the deposited data

How the results depend on the processing

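Having 2 libraries a group, and a depth of 12.94 to 14.65 M reads (M for 1000000) with MS8815, limits the precision; where a library is left out, the lone library of its group is assumed to vary like the others. Scaled to other B-cell genes, the log2 differences of CD79A, CD79B, CD37, CD72, CD40 and IGHG1 were 0.16, 0.22, 0.05, 0.63, 0.68 and 0.07 for MS8815 against DMSO. They were 0.04, 0.17, 0.05, 0.28, 0.57 and 0.25 for MS8815 against MS8815N, and 0.14, 0.20, 0.03, 0.25, 0.47 and 0.24 for MS8815 against EPZ-6438. With that scaling, 5 of the 8 genes were called for MS8815 against MS8815N (3 higher, 2 lower). It called 13708 genes of the MS8815 to DMSO comparison (13565 higher), 13447 against MS8815N, 13581 against EPZ-6438, and 2 for EPZ-6438 against DMSO. This follows from the construction, as the scaling moves the median of all genes. Quantile normalisation left CD40 at -0.20 with MS8815, equal to the median of all genes at -0.20, called 13 genes for EPZ-6438 against DMSO and 17 for MS8815N against EPZ-6438.

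With the lower 50% of genes by level left out, the counts of called genes were 5701 (1660 higher) for MS8815, 298 (67 higher) for EPZ-6438 and 385 (120 higher) for MS8815N against DMSO, and 5635 and 5612 for MS8815 against MS8815N and EPZ-6438; fewer genes are tested there. Without the variance trend, 169 genes were called for EPZ-6438 and 252 for MS8815N against DMSO, and 4 for MS8815N against EPZ-6438; the cause was not tested. On log2 counts 25 were called for EPZ-6438. With the spread taken over all 8 libraries, 0 were called for EPZ-6438 and 65 for MS8815N. Of the 8 genes, 1 (IGHG1) was called with EPZ-6438 with the lower 50% left out, without the trend, with a pseudocount of 0.1 and on log2 counts.

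Leaving out 1 library at a time gave 6 to 7 called members for MS8815 against DMSO, 0 to 0 for EPZ-6438 and 0 to 0 for MS8815N. Over all genes the counts were 3583 to 8932, 0 to 0 and 0 to 6, and 8 to 60 for MS8815N against EPZ-6438. The low counts for MS8815 were 3657 without DMSO replicate 1 and 3583 without DMSO replicate 2. With every library kept, all 8 members and 50.6% of all genes were called in both pairs with MS8815.

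Same-numbered libraries did not deviate together, the correlation of their deviations being -0.035, -0.013 and 0.021 for MS8815, EPZ-6438 and MS8815N with DMSO, so the numbers were not taken as pairs. With the replicate number as a block, 7, 0 and 1 of the 8 genes were called against DMSO, as without it, and 8694, 10 and 353 of all genes.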
